A study of Mus musculus with 12 samples.

Results

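Dbp, Tef and Hlf are the mouse genes of the PAR bZIP transcription factors, and Nfil3 (also called E4BP4) encodes a bZIP repressor of the same DNA element. These 4 genes were taken by symbol from the probe-gene table, each had 1 probe set with exactly 1 gene symbol, and they are described here among 19938 measured genes. Expression was measured on 12 microarrays of mouse renal cortex RNA, 3 in each of 4 groups. Every group was homozygous for a floxed Nr3c1, which encodes the glucocorticoid receptor (GR). The GR-deficient groups (Pax8-Cre;nr3c1 flox/flox) had in addition the recombinase Cre under Pax8, which deletes the receptor in renal tubular epithelium, and the control groups (nr3c1 flox/flox) had no Cre, so a difference between genotypes includes any effect of Cre itself. In each genotype, cortex was taken 24 hours after an intramuscular glycerol injection, which causes myoglobinuric acute kidney injury (AKI), or from a separate cohort of healthy mice that got no injection. The groups are therefore GR-deficient AKI, GR-deficient healthy, control AKI and control healthy. The labels used here give neither the age of the mice nor the time of day at which cortex was dissected, and their replicate numbers are not tied to animals, so the p-values rest on the spread between samples, which may be technical.

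PAR bZIP factors are named for a region rich in proline and acidic amino acids next to their basic leucine zipper. Dbp is driven by the core clock activators CLOCK and BMAL1 through E-boxes, Dbp, Tef and Hlf activate transcription through D-box elements, and Nfil3 competes for the D-box as a repressor whose own gene is repressed by the REV-ERB receptors Nr1d1 and Nr1d2. In liver, kidney and intestine of the mouse the 3 activators are known for rhythmic control of detoxification genes. Glucocorticoids are known to carry timing signals from the adrenal gland to clocks of peripheral tissues.

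The RefSeq promoter windows of the members run from 250 bases before to 50 bases after an annotated start (300 bases, build GRCm38.p6). They are shown because the elements of the clock and of GR can be looked up in them. They were searched on both strands for the E-box CACGTG, the D-box as TTACGTAA or TTATGTAA, the full palindromic glucocorticoid response element, the cAMP response element TGACGTCA and the ROR core element AGGTCA, and matches are in capitals. The Tef gene has 2 annotated starts on chromosome 15, Dbp lies on chromosome 7, Hlf on 11 and Nfil3 on 13.
Tef, first start, chr15:81802423-81802722, plus strand: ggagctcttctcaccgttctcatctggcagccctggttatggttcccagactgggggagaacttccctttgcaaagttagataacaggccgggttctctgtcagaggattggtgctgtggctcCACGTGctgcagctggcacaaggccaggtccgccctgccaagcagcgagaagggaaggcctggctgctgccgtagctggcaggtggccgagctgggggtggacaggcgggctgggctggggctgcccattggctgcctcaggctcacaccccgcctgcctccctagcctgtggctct
Tef, second start, chr15:81811164-81811463, plus strand: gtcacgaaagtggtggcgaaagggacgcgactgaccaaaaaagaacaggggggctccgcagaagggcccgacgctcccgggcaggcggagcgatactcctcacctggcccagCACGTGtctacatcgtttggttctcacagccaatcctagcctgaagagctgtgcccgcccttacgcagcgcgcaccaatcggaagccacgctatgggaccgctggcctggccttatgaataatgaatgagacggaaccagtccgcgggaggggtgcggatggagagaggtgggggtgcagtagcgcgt
Hlf, chr11:90390868-90391167, minus strand: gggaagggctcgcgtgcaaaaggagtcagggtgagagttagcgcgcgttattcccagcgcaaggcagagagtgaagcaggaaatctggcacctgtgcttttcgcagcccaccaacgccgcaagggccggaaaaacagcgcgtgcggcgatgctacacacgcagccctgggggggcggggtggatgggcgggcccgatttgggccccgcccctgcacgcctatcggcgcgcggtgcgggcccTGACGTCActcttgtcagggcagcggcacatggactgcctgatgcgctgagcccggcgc
Nfil3, chr13:52980990-52981289, minus strand: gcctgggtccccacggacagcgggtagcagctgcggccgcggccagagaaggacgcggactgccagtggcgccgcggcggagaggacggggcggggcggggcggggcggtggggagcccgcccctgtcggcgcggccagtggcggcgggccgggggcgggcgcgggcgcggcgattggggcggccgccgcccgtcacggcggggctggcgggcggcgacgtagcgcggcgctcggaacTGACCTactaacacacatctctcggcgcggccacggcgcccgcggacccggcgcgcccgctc
Dbp, chr7:45704997-45705296, plus strand: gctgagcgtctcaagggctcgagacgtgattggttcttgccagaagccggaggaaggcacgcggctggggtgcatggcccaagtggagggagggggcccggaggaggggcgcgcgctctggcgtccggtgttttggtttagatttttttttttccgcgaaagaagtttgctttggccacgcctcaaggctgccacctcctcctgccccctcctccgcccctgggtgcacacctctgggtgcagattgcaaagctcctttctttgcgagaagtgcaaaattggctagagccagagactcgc

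Both Tef windows held an E-box, beginning 127 and 138 bases before their starts, and 7.15% of all 32851 RefSeq promoter windows of this length hold it. The Hlf window held a cAMP response element 9 bases before the start (1.79% of all windows hold it), and the Nfil3 window a ROR core element, read on the other strand as TGACCT, 12 bases before the start (16.3% of all windows). None of these elements was in the Dbp window. No window of the 4 genes held the D-box (1.06% of all windows) or the full glucocorticoid response element (0.00913% of all windows). These are matches of letters within these windows only.

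Nr3c1 itself, measured as a check of the genotype, was at 7.98 ± 0.12 in GR-deficient AKI, 8.17 ± 0.037 in GR-deficient healthy, 8.86 ± 0.037 in control AKI and 9.55 ± 0.091 in control healthy cortex (log2 expression, SD, n = 3 each). Values are log2 expression as the authors deposited it, and differences are on the same scale. Control AKI replicate 1 stood apart on the second principal component (33.8, the others of its group -5.59 and -15.4) and so did GR-deficient healthy replicate 1 on the third (34.8, the others of its group 2.99 and -3.10); values without both of them stand beside the results they move by over 1.5 times or across the threshold. The tissue markers fitted renal cortex: 8 proximal tubule genes averaged 12.66 to 12.74 on the control healthy arrays, and 9 genes of natural killer cells and lymphocytes averaged 5.30 to 5.68 over all 12 arrays.

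With AKI, all 3 PAR bZIP activators fell and their repressor rose in control cortex, while in GR-deficient cortex Tef was the only member that passed the test. Here and below, "with AKI" means AKI cortex against cortex of the separate healthy cohort. An effect of injury cannot be told apart from one of cohort or time of dissection, which the labels used here do not give. A gene passed with a Benjamini-Hochberg adjusted p under 0.05 over all 19938 genes in limma's moderated test. In control mice 3 of the 4 members fell and 1 rose with AKI, where 15.1% of all genes fell and 13.6% rose. In GR-deficient mice 1 of the 4 fell and 0 rose, where 1.35% of all genes fell and 3.29% rose, and the unadjusted p-values of Dbp, Hlf and Nfil3 were 0.0847, 0.577 and 0.276 there.

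Dbp, the D-box binding activator, had log2 levels of 9.40, 9.51 and 9.67 in GR-deficient AKI cortex, against 9.49, 10.33 and 9.85 in GR-deficient healthy cortex. The levels were 8.18, 8.35 and 8.63 in control AKI cortex, against 11.37, 11.11 and 10.77 in control healthy cortex. The AKI and healthy arrays overlapped in GR-deficient mice and were far apart in control mice. With AKI, Dbp differed by -0.36 ± 0.20 in GR-deficient mice (SE, adjusted p = 0.357, 95% interval -0.79 to 0.06) and fell by 2.69 ± 0.20 in control mice (adjusted p = 1.67e-07), a 6.47-fold lower level. The value in GR-deficient mice was -0.14 without GR-deficient healthy replicate 2, -0.56 without both arrays that stood apart (adjusted p = 0.084) and -0.66 with array quality weights, where it passed (adjusted p = 0.0158). Of all 19938 genes, 36 had a larger decrease with AKI in control mice.

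Tef, the thyrotroph embryonic factor, had log2 levels of 8.54, 8.80 and 8.83 in GR-deficient AKI cortex, against 9.29, 9.70 and 9.37 in GR-deficient healthy cortex. In control AKI cortex it had 7.43, 7.46 and 7.67, against 10.15, 9.99 and 9.76 in control healthy cortex. In each genotype every AKI array lay below every healthy array. Tef fell by 0.73 ± 0.14 with AKI in GR-deficient mice (adjusted p = 0.00777) and fell by 2.44 ± 0.14 in control mice (adjusted p = 2.6e-08), which is 1.66-fold and 5.44-fold lower. Without GR-deficient AKI replicate 1 the difference in GR-deficient mice was -0.64 and no longer passed (adjusted p = 0.0603).

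Hlf, the hepatic leukemia factor, had log2 levels of 9.32, 9.50 and 9.59 in GR-deficient AKI cortex, against 9.38, 9.68 and 9.63 in GR-deficient healthy cortex. It had 7.81, 7.28 and 8.03 in control AKI cortex, against 9.78, 9.82 and 9.85 in control healthy cortex. The 3 control AKI arrays were the lowest of all 12, and the other 9 lay within 9.32 to 9.85. With AKI, Hlf differed by -0.09 ± 0.16 in GR-deficient mice (adjusted p = 0.816, 95% interval -0.43 to 0.25) and fell by 2.11 ± 0.16 in control mice (adjusted p = 2.26e-07), a 4.32-fold lower level. The value in GR-deficient mice was -0.18 without both arrays that stood apart (adjusted p = 0.573).

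Nfil3, the repressor, had log2 levels of 7.51, 7.39 and 7.44 in GR-deficient AKI cortex, against 7.68, 6.19 and 7.38 in GR-deficient healthy cortex. The levels were 8.85, 9.0 and 8.41 in control AKI cortex, against 6.02, 6.37 and 7.10 in control healthy cortex. The 3 control AKI arrays were the highest of all 12, and the healthy arrays of both genotypes were widely scattered. With AKI, Nfil3 differed by 0.36 ± 0.32 in GR-deficient mice (adjusted p = 0.6, 95% interval -0.32 to 1.05) and rose by 2.26 ± 0.32 in control mice (adjusted p = 7.36e-05), a 4.78-fold higher level. Without GR-deficient healthy replicate 2, which held the 6.19, the difference in GR-deficient mice was -0.08 (adjusted p = 0.912), and without both arrays that stood apart it was 0.66 (adjusted p = 0.272).

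**Figure D1:**
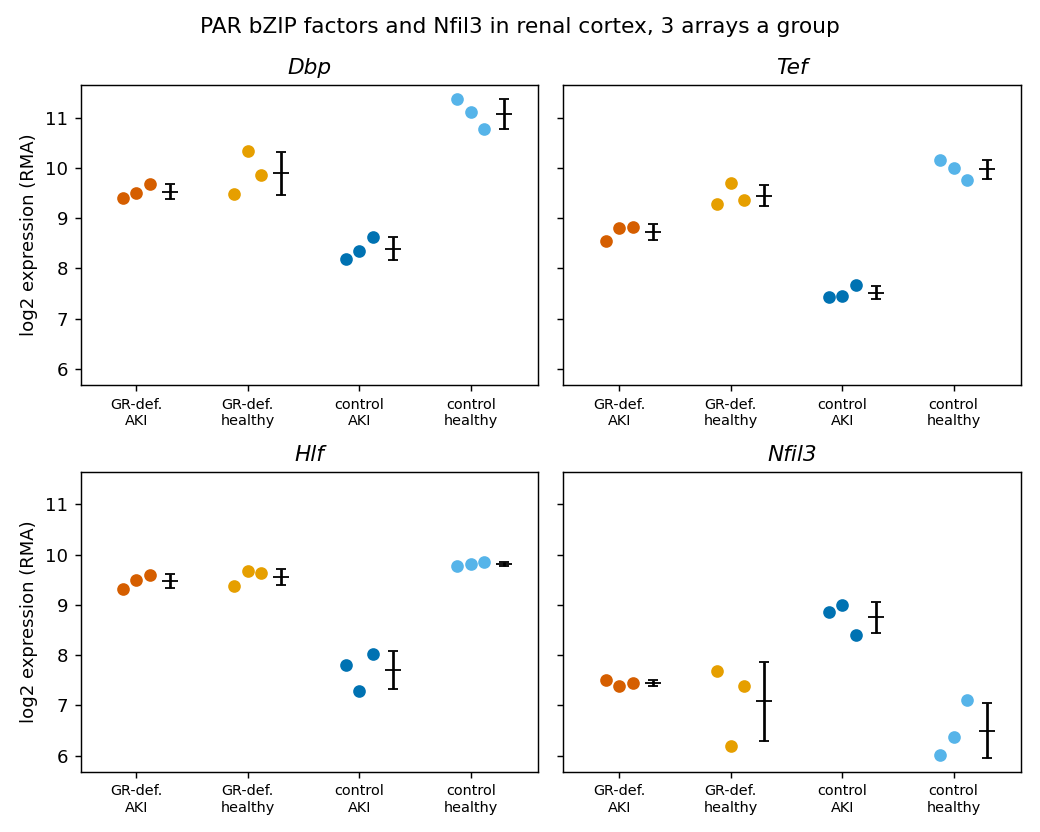
Log2 expression (vertical axis) of the 4 genes in GR-deficient AKI, GR-deficient healthy, control AKI and control healthy cortex, with a point for each array and the group mean with its SD (n = 3) beside it. Control AKI arrays are the lowest of each gene for Dbp, Tef and Hlf and the highest for Nfil3. The share of all genes with such an order was not counted.

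Marker genes of several cell types moved with these results. Of all genes, 1.35% fell and 3.29% rose with AKI in GR-deficient mice, and 15.1% fell and 13.6% rose in control mice. Of 8 proximal tubule markers, 2 fell with AKI in GR-deficient mice and 8 in control mice, and their mean log2 level per array was 12.02 to 12.28 in GR-deficient AKI, 12.06 to 12.60 in GR-deficient healthy, 10.68 to 11.16 in control AKI and 12.66 to 12.74 in control healthy cortex. Of 8 markers of the loop, distal tubule and collecting duct, 2 fell in GR-deficient and 6 in control mice. Of 8 neutrophil markers, 0 passed in GR-deficient mice (3 at an unadjusted p under 0.05, limma) and 5 rose in control mice, with means per array of 5.53 to 5.88 in GR-deficient AKI, 5.41 to 5.60 in GR-deficient healthy, 6.33 to 6.59 in control AKI and 5.29 to 5.55 in control healthy cortex. Of 7 monocyte and macrophage markers, 1 rose in GR-deficient mice, and 2 rose and 1 fell in control mice, with means per array of 7.18 to 7.43 in GR-deficient AKI, 6.88 to 7.28 in GR-deficient healthy, 7.37 to 7.63 in control AKI and 7.14 to 7.27 in control healthy cortex. Cd68 of that list rose by 1.28 in GR-deficient and 2.85 in control mice (limma adjusted p of 0.000762 and 3.33e-08). Csf1r of the same list went the other way, with differences of -0.27 in GR-deficient and -0.85 in control mice (adjusted p of 0.256 and 7e-05). Both were named after their values were seen. The median difference of the list was 0.12 in GR-deficient and -0.18 in control mice. Of 8 endothelial markers, 0 passed in GR-deficient mice (2 at an unadjusted p under 0.05, limma), and 3 rose and 3 fell in control mice, with means per array of 9.48 to 9.50 in GR-deficient AKI, 9.26 to 9.46 in GR-deficient healthy, 9.14 to 9.47 in control AKI and 9.45 to 9.55 in control healthy cortex. The part of these cell types in the results for the 4 genes was not tested. In whole cortex, fewer cells of a type and less RNA per cell cannot be told apart. Nfil3 is known in mice for its role in natural killer cells: of 9 markers of natural killer cells and lymphocytes, 0 passed limma's test in any comparison, and at an unadjusted p under 0.05 there was 1 for AKI in control mice, 1 between genotypes after AKI and 0 in the other comparisons.

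The next question was what loss of tubular GR changed in cortex of healthy mice. Dbp was the only member that passed: 1 of the 4 fell, where 0.11% of all genes fell. Its level was 9.89 ± 0.42 in GR-deficient healthy and 11.08 ± 0.30 in control healthy cortex (log2, SD, n = 3 each), a difference of -1.19 ± 0.20 (SE, limma adjusted p = 0.0288) with no overlap of arrays. Of all genes, 7 had a larger decrease. The call did not hold without GR-deficient healthy replicate 1, which stood apart (-0.99, adjusted p = 0.164), without both arrays that did (-0.99, adjusted p = 0.0627), without control healthy replicate 1 (-1.05, adjusted p = 0.162) or replicate 2 (-1.18, adjusted p = 0.091), or without GR-deficient AKI replicate 1 (-1.19, adjusted p = 0.053).

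Differences of the other members in healthy mice did not pass. Tef averaged 9.45 ± 0.21 in GR-deficient and 9.97 ± 0.19 in control healthy cortex (SD, n = 3 each), a difference of -0.51 (95% interval -0.81 to -0.22, limma adjusted p = 0.184), and its arrays did not overlap. Hlf averaged 9.56 ± 0.16 in GR-deficient and 9.82 ± 0.038 in control healthy cortex, a difference of -0.25 (95% interval -0.59 to 0.09, adjusted p = 0.622), and it was -0.16 without both arrays that stood apart. Nfil3 averaged 7.08 ± 0.79 in GR-deficient and 6.50 ± 0.55 in control healthy cortex, a difference of 0.59 (95% interval -0.10 to 1.27, adjusted p = 0.549), and its arrays overlapped. This Nfil3 difference ranged over 0.29 to 1.03 when arrays were left out in turn, lowest without GR-deficient healthy replicate 1 and highest without its replicate 2; it was 0.29 without both arrays that stood apart and 0.04 with array quality weights. For Dbp, Tef and Hlf every GR-deficient healthy array lay below every control healthy array, as for 10.6% of all genes.

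After AKI the genotypes differed in all 4 genes. Dbp, Tef and Hlf were higher in GR-deficient than in control AKI cortex, where 10% of all genes were higher, and Nfil3 was lower, where 7.34% of all genes were lower. Dbp averaged 9.53 ± 0.14 in GR-deficient AKI and 8.39 ± 0.23 in control AKI cortex (log2, SD, n = 3 each), 2.20-fold higher (1.14 ± 0.20, SE, limma adjusted p = 0.000933). Tef averaged 8.72 ± 0.16 in GR-deficient AKI and 7.52 ± 0.13 in control AKI cortex, 2.30-fold higher (1.20 ± 0.14, adjusted p = 3.6e-05). Hlf averaged 9.47 ± 0.14 in GR-deficient AKI and 7.70 ± 0.38 in control AKI cortex, 3.40-fold higher (1.77 ± 0.16, adjusted p = 5.6e-06). Nfil3 averaged 7.45 ± 0.06 in GR-deficient AKI and 8.75 ± 0.31 in control AKI cortex, 2.47-fold lower (-1.31 ± 0.32, adjusted p = 0.0106). For Dbp, Tef and Hlf every GR-deficient AKI array lay above every control AKI array, as for 17.5% of all genes, and for Nfil3 every one lay below, as for 15.3% of all genes. Proximal tubule markers were higher in GR-deficient AKI cortex too, 8 of 8, and 5 of 8 neutrophil markers were lower; their part in these differences was not tested.

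Dbp was thus lower in GR-deficient than in control mice when healthy, a call that several left-out arrays ended, and higher after AKI. Whether the AKI response itself depended on genotype was tested as the interaction, the AKI effect in GR-deficient mice minus that in control mice. It passed for all 4 members: 3 were positive, where 7.39% of all genes were, and Nfil3 was negative, where 4.06% of all genes were. Since the activators fell with AKI, a positive value means a smaller decrease in GR-deficient mice. The interaction was 2.33 ± 0.28 for Dbp (95% interval 1.73 to 2.93, adjusted p = 0.000158), 1.72 ± 0.19 for Tef (1.30 to 2.13, adjusted p = 0.000119) and 2.02 ± 0.22 for Hlf (1.54 to 2.50, adjusted p = 0.000107, limma). For Nfil3 it was -1.89 ± 0.45 (-2.87 to -0.92, adjusted p = 0.014), and it did not pass when both arrays that stood apart were left out (-1.55, adjusted p = 0.0519). The 2 genotype comparisons and the interaction use the same arrays as the 2 AKI comparisons, so they are not separate evidence.

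**Figure D2:**
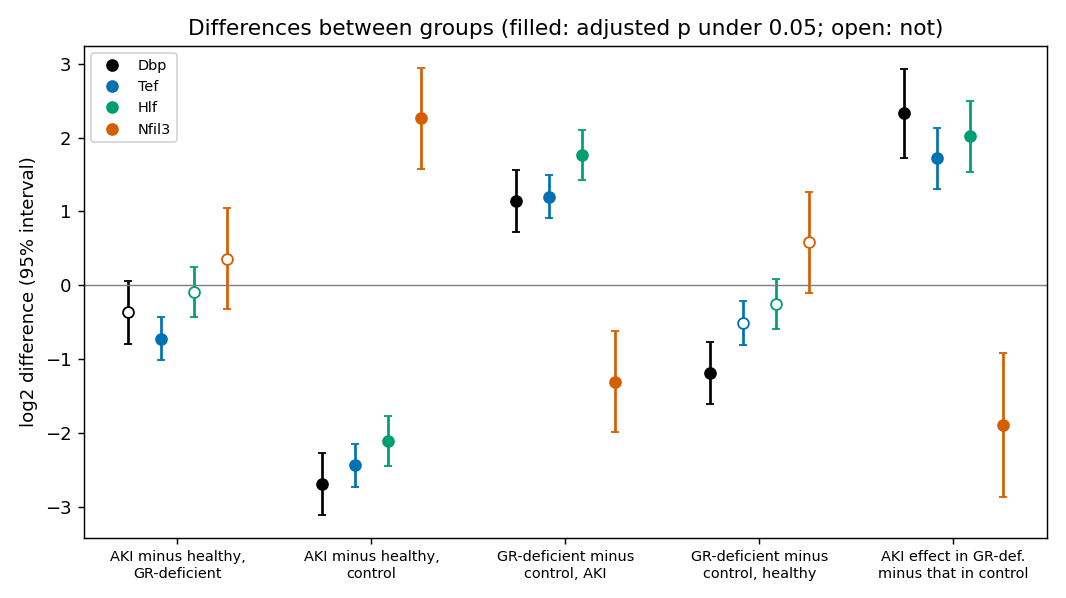
Log2 differences (vertical axis) with 95% intervals from the limma fit for Dbp, Tef, Hlf and Nfil3 in the 4 comparisons and the interaction; filled points passed an adjusted p of 0.05. The intervals of Dbp, Hlf and Nfil3 include 0 for AKI in GR-deficient mice and exclude it for AKI in control mice.

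Ordered from high to low, the groups ran the same way for the 3 activators: control healthy, GR-deficient healthy, GR-deficient AKI, control AKI. Neighbours in that order that did not pass a test were GR-deficient AKI and GR-deficient healthy for Dbp, GR-deficient healthy and control healthy for Tef, and for Hlf both of these pairs. For Nfil3 the order was reversed, and of its neighbours the GR-deficient AKI and control AKI groups were the pair that passed.

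Dbp and Tef also varied together between arrays of the same group, and Hlf did so less regularly. Dbp and Tef put the 3 replicates in the same order in 4 of 4 groups, Dbp and Hlf in 2 of 4, and Tef and Hlf in 2 of 4. Nfil3 ran against Dbp in part: in 3 of 4 groups the array with the highest Dbp had the lowest Nfil3. In 2 groups, healthy mice of each genotype, the whole order was reversed. Orders of only 3 arrays often coincide, and how often other pairs of genes share or reverse an order was not counted. In GR-deficient healthy cortex, replicate 2 lay 0.44 above the group mean for Dbp and 0.24 above it for Tef, and 0.90 below it for Nfil3. In control healthy cortex, replicate 3 lay 0.31 below the mean for Dbp (a deviation of -0.31) and 0.60 above it for Nfil3. Replicates carry no order of their own, and the labels used here do not say what the arrays of a group differ in. The pooled SD within groups was 0.291 for Dbp, 0.177 for Tef, 0.22 for Hlf and 0.507 for Nfil3, against a median of 0.163 over all genes, and 99.6% of genes had a smaller SD than Nfil3 and 94.2% a smaller SD than Dbp.

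**Figure D3:**
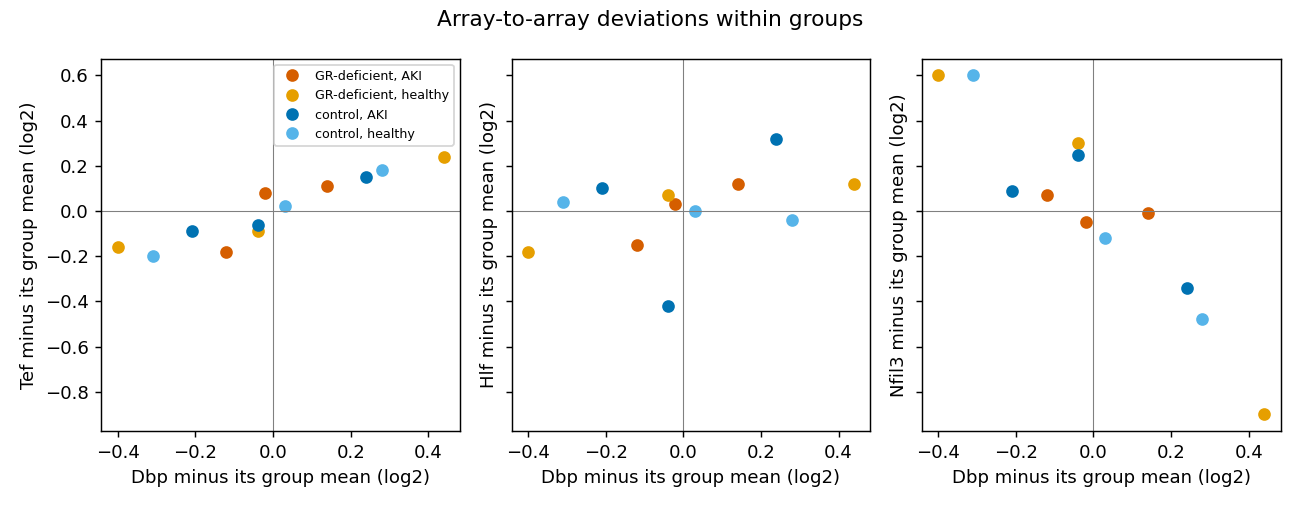
Deviation of Tef, Hlf and Nfil3 (vertical axes) from their group means against that of Dbp (horizontal axis), all on the log2 scale, with a point for each of the 12 arrays. Tef runs with Dbp in every group, while in 3 of 4 groups Nfil3 is lowest where Dbp is highest, as in GR-deficient healthy replicate 2 (0.44 for Dbp and -0.90 for Nfil3).

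The genes whose log2 levels followed a member most closely over the 12 arrays were looked up by Pearson correlation, as a description that mostly reflects the differences between the 4 groups. For Dbp they were Bpnt1, a nucleotidase (r = 0.988), Dnajc6, the clathrin uncoating factor auxilin (0.986), the kinase gene Dyrk1b (0.985), Deaf1, a transcription factor (0.980), and the lysosomal mannosidase gene Man2b1 (0.976). For Tef they were Acsm5, an acyl-CoA synthetase of fatty acid metabolism (0.996), Nlrp6 (0.995), Fam214a (0.992), the carboxylesterase gene Ces1e (0.991) and the glypican gene Gpc4 (0.991). Acsm5 differed with AKI by -0.71 in GR-deficient and -2.54 in control mice. For Hlf they were Chrna4, a nicotinic receptor subunit (0.995), Hsd11b2, which inactivates glucocorticoids in collecting duct cells (0.991), Ndufs8 of respiratory complex I (0.991), Arhgap24 (0.990) and Nox4, a renal NADPH oxidase (0.989). For Nfil3 they were Cct7, a chaperonin subunit (0.956), Leo1 (0.954), Relb of the NF-kappaB family (0.952), Zfp330 (0.950) and Krt8, an epithelial keratin (0.948). Between the members, r was 0.963 for Dbp and Tef, 0.858 for Dbp and Hlf, 0.918 for Tef and Hlf, and -0.944 for Dbp and Nfil3, over groups that lie apart.

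The core clock loop, which drives Dbp, was described by 15 genes measured of 18 listed. Of these, 0 passed with AKI in GR-deficient mice (limma, with 5 at an unadjusted p under 0.05), where 4.64% of all genes passed. In control mice 4 rose and 7 fell, where 13.6% of all genes rose and 15.1% fell. The median difference was -0.06 in GR-deficient and -0.27 in control mice, against -0.026 and 0.001 over all genes. In GR-deficient mice 1 of the 15 passed without GR-deficient healthy replicate 1 and 2 without GR-deficient healthy replicate 3; 1 passed without both arrays that stood apart, 1 with a minimum mean of 6, and 5 with array quality weights (1 higher and 4 lower). Arntl, the gene of the activator BMAL1, averaged 7.57 ± 0.10 in GR-deficient AKI and 7.09 ± 0.32 in GR-deficient healthy cortex, and 8.0 ± 0.099 in control AKI and 6.48 ± 0.15 in control healthy cortex (log2, SD, n = 3 each). It rose by 1.52 in control mice (adjusted p = 1.71e-06) and differed by 0.48 in GR-deficient mice (adjusted p = 0.0751, interaction -1.04, adjusted p = 0.00421).

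The D-box was also looked up in windows of genes reported as regulated by PAR bZIP factors or Nfil3 in other mouse tissues. Of 11 such windows, of 10 genes, 0 held it, where 1.06% of all windows do. Windows of the clock genes were searched in the same way. The window upstream of Per3 was the only clock window, of 20 searched for 13 genes, with a D-box, and it held 2 copies, shown here with their flanking bases and the D-box in capitals.
Per3, 205 bases before the start, chr4:151044847-151044886, minus strand: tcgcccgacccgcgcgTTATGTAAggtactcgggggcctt
Per3, 158 bases before the start, chr4:151044800-151044839, minus strand: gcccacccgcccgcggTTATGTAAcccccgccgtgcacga

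Per3, a period gene, had log2 levels of 7.64, 7.65 and 7.52 in GR-deficient AKI cortex, against 7.48, 7.98 and 7.78 in GR-deficient healthy cortex. It had 7.09, 6.72 and 6.75 in control AKI cortex, against 8.31, 8.24 and 8.16 in control healthy cortex. The AKI arrays of control mice were thus the lowest, as for the 3 activators. Per3 differed by -0.14 with AKI in GR-deficient mice (adjusted p = 0.629) and fell by 1.38 in control mice (adjusted p = 2.05e-06), with an interaction of 1.24 (adjusted p = 0.000802, limma). Per2, its relative, fell by 1.04 and Nr1d2, the gene of REV-ERB beta, fell by 1.19 in control mice (adjusted p of 4.89e-05 and 4.56e-06). In GR-deficient mice the differences were -0.06 and -0.30 (adjusted p of 0.863 and 0.222). Nr1d1, the other REV-ERB gene, was named after its values were seen. It differed by -1.01 in control mice (limma adjusted p = 0.0134) and by -0.42 in GR-deficient mice (adjusted p = 0.48). Between genotypes after AKI it differed by 0.20 (adjusted p = 0.71), and its interaction was 0.60 (adjusted p = 0.413).

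In AKI cortex 3 clock genes were higher and 3 lower in GR-deficient than in control mice, where 10% of all genes were higher and 7.34% lower. The clock counts were 3 and 5 after quantile normalization or with a minimum mean of 6. They were 3 and 6 when arrays were weighted by quality. Per3 (0.75), Per2 (0.74) and Nr1d2 (0.57) were the higher ones (adjusted p from 0.00118 to 0.00545). The lower ones, named after their values were seen, were Per1 (-0.67, a period gene with known GR binding sites), Cry1 (-0.46, a clock repressor) and Csnk1e (-0.57, a kinase that acts on PER proteins). For the interaction the counts were 3 positive and 1 negative, where 7.39% of all genes were positive and 4.06% negative. The clock counts were 3 and 2 after quantile normalization, and 4 and 3 after cyclic loess. They were 4 and 4 when arrays were weighted by quality, and 4 and 2 without both arrays that stood apart. In healthy mice 0 of the 15 passed between genotypes (limma, with 6 at an unadjusted p under 0.05), where 0.145% of all genes passed. The share of all genes at that unadjusted level was not counted. Without GR-deficient healthy replicate 2, 1 of the 15 passed.

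**Figure D4:**
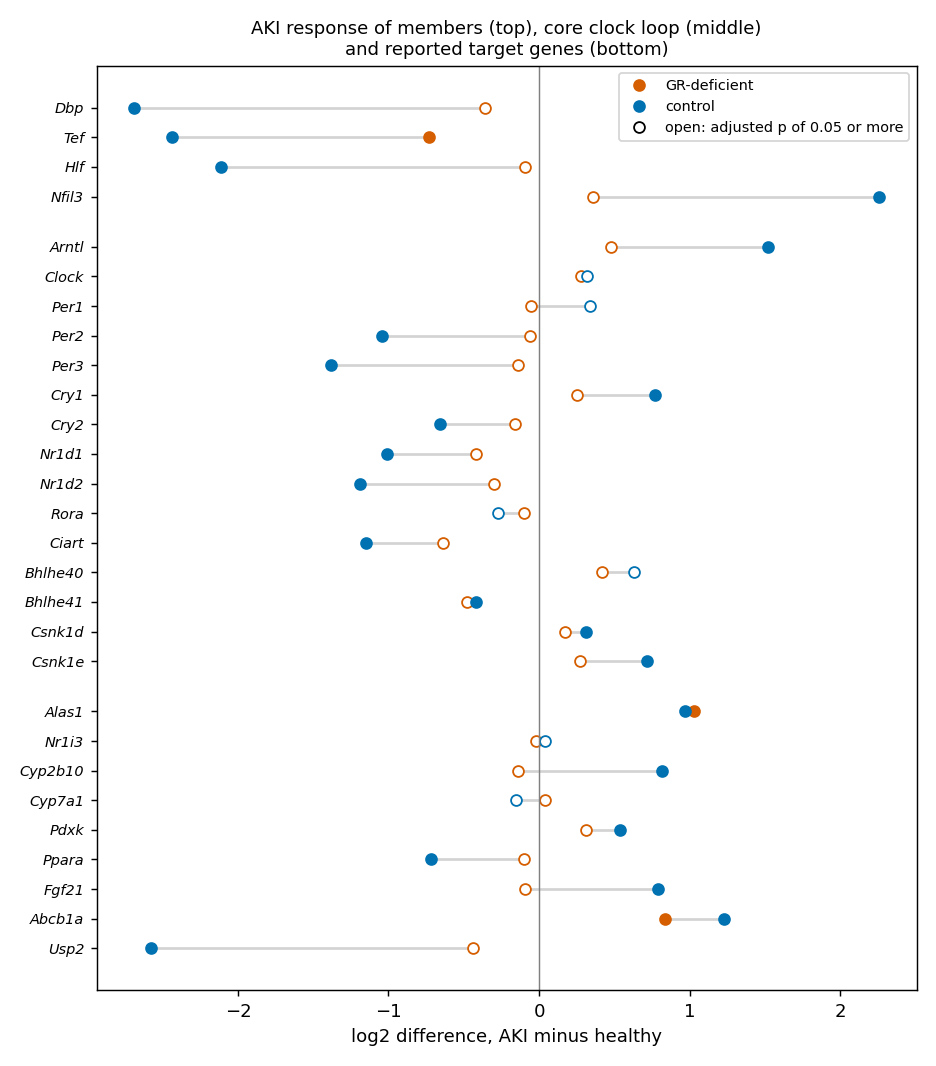
Log2 difference between AKI and healthy cortex (horizontal axis) in GR-deficient and in control mice for the 4 members, the 15 measured core clock genes and 9 genes reported as targets of the factors in other mouse tissues; open points did not pass an adjusted p of 0.05. Usp2 (-0.44 in GR-deficient and -2.58 in control mice) and Alas1 (1.03 and 0.97) mark the widest and the narrowest gap among the target genes that passed in control mice.

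Genes reported to be regulated by PAR bZIP factors or Nfil3 in other mouse tissues included some that rose and some that fell. Of 9 measured, 2 rose and 0 fell with AKI in GR-deficient mice, and 5 rose and 2 fell in control mice. Of all genes, 3.29% rose and 1.35% fell in GR-deficient mice, and 13.6% rose and 15.1% fell in control mice. In GR-deficient mice the counts were 2 and 1 after quantile normalization or cyclic loess. They were 3 and 1 with array quality weights or without both arrays that stood apart. The medians were -0.02 in GR-deficient and 0.54 in control mice, against -0.026 and 0.001 over all genes. Usp2, a deubiquitinase gene with a strong daily rhythm, averaged 9.59 ± 0.093 in GR-deficient AKI and 10.02 ± 0.29 in GR-deficient healthy cortex, and 8.10 ± 0.19 in control AKI and 10.68 ± 0.046 in control healthy cortex (log2, SD, n = 3 each). It fell by 2.58 in control mice (adjusted p = 1.86e-08), differed by -0.44 in GR-deficient mice (adjusted p = 0.095) and had an interaction of 2.15 (adjusted p = 3.68e-05, limma). Other genes of the list rose. Alas1, the first enzyme of heme synthesis, rose by 1.03 in GR-deficient and 0.97 in control mice (adjusted p of 0.00391 and 0.000467), and Abcb1a, a drug efflux pump, by 0.84 and 1.23 (adjusted p of 0.0021 and 3.61e-06). Fgf21, a hormone gene that Nfil3 represses in liver, differed by -0.09 in GR-deficient mice (adjusted p = 0.731) and rose by 0.79 in control mice (adjusted p = 0.00011).

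Classical GR target genes were set beside the members on the same arrays. Of 10 measured, 1 was higher and 6 lower in GR-deficient than in control AKI cortex, where 10% of all genes were higher and 7.34% lower. Their median difference was -0.64, against -0.043 over all genes. In healthy mice 0 passed (limma, with 4 at an unadjusted p under 0.05), where 0.145% of all genes passed. There 1 passed when GR-deficient healthy replicate 3, or control AKI replicate 1, was left out. The window upstream of Sgk1, a kinase that regulates renal sodium transport, held the full glucocorticoid response element, the only such match among 17 windows of 9 genes of this list. It is shown for comparison with the members' windows, which held none.
Sgk1, 189 bases before the start, chr10:21993685-21993731, plus strand: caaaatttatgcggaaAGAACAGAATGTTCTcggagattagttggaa

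Sgk1 averaged 8.84 ± 0.27 in GR-deficient AKI and 9.38 ± 0.098 in control AKI cortex, and 8.76 ± 0.29 in GR-deficient healthy and 8.43 ± 0.14 in control healthy cortex (log2, SD, n = 3 each). It was 0.55 lower on the log2 scale in GR-deficient AKI cortex (a difference of -0.55, limma adjusted p = 0.0263). Mt2, a metallothionein, differed by -1.18 and Pdk4, which restrains glucose oxidation, by -1.79 (adjusted p of 0.000196 and 0.000153). Klf15, a regulator of amino acid and glucose metabolism, was higher instead (0.84, adjusted p = 0.00174). Like the 3 activators, Klf15 was at its lowest in control AKI cortex (7.95 ± 0.26), against 8.79 ± 0.22 in GR-deficient AKI cortex. With AKI it fell in both genotypes, with differences of -0.88 in GR-deficient and -1.80 in control mice (adjusted p of 0.00603 and 8.07e-07).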

How the data were processed

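RNA of renal cortex from 12 mouse samples, 3 per group, was measured on Affymetrix arrays. The authors deposited log2 expression values per probe set, and the submitters' processing notes name RMA, affy and oligo, without versions in the sources used here. By its method RMA subtracts background, equalizes arrays and merges the probes of a set, so no probe intensities enter here, and the number of arrays limits the precision. Array medians lay within 7.001 to 7.092.

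Of 35556 probe sets, 23410 were in the platform's gene table, 21789 with 1 symbol and 1621 with several, and 12146 had no entry. Per gene the probe set with the highest mean over the 12 arrays was kept, which left 19938 genes. A model of 4 group means was fitted with limma 3.58.1 in R 4.3.3 (8 residual degrees of freedom) and 5 contrasts were tested, with Benjamini-Hochberg adjustment over all genes and a threshold of 0.05. The fit was tested on simulated data with 200 changed genes. Of changes of 0.5 on the log2 scale it recovered 28% to 32% in the 4 comparisons and 2% for the interaction. Of changes of 1 it recovered 90% to 96% and 76%. A difference near 0.5 that did not pass is therefore not shown to be absent. Genes outside the 4 members were named by rule. These were the 5 genes with the highest positive correlation with each member, after the exclusions given there, and the 4 of each list with the smallest limma p for AKI in control mice. Any others were chosen after their values were seen and are marked so. The members and gene lists were chosen with earlier results of these data known. Alternatives were other normalizations, all probe sets, a minimum mean of 6, array weights, another prior, fits of fewer groups, a replicate block and leaving out arrays. Replicate numbers did not pair the samples. Promoter windows and symbols come from RefSeq tables; protein sequences were not used here.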

Additional observations from a re-analysis of the deposited data

Results flagged for a closer look

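The response to AKI differed between genotypes by limma's interaction test in all 4 genes, as it did in 11.5% of all genes. Each value is the AKI effect in GR-deficient mice minus that in control mice. Dbp differed by 2.33 (adjusted p = 0.000158), with AKI effects of -0.36 in GR-deficient and -2.69 in control mice. Tef differed by 1.72 (adjusted p = 0.000119), with effects of -0.73 in GR-deficient and -2.44 in control mice. Hlf differed by 2.02 (adjusted p = 0.000107), with effects of -0.09 in GR-deficient and -2.11 in control mice. Nfil3 differed by -1.89 (adjusted p = 0.014), with effects of 0.36 in GR-deficient and 2.26 in control mice. Its interaction did not pass with all probe sets or without both arrays that stood apart. With 3 arrays per group, no single array was tested as an outlier.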

How the results depend on the processing

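Of 196 values of the 4 genes under 10 other settings, 190 kept their direction and their side of the threshold, and 0 reversed. With array quality weights Dbp passed for AKI in GR-deficient mice (-0.66, adjusted p = 0.0158), which made 2 members called. Between genotypes in healthy mice Dbp did not pass with all probe sets (-1.19, adjusted p = 0.156), with only the groups compared (-1.19, adjusted p = 0.091) or, chosen after seeing the data, without both arrays that stood apart (-0.99, adjusted p = 0.0627), so 0 members were called. The Nfil3 interaction did not pass with all probe sets (-1.89, adjusted p = 0.0571) or without both arrays (-1.55, adjusted p = 0.0519). The causes were not tested. With array quality weights 2 genes of the reported target list and 3 GR targets passed between genotypes in healthy mice, where 0 of each did, and 5 against 3 of the reported targets passed for the interaction.

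Array weights moved the genes called to 3196 for AKI in GR-deficient mice, 9648 for AKI in control mice, 7000 between genotypes after AKI, 301 in healthy mice and 4905 for the interaction, against 926, 5715, 3460, 29 and 2283. In healthy mice the count was 61 with cyclic loess, 11 with all probe sets, 62 with a minimum mean of 6, 71 with a trended robust prior and 14 with only the groups compared. For AKI in GR-deficient mice 656 genes were higher and 270 lower, but 659 and 436 after quantile normalization and 687 and 447 after cyclic loess; for the interaction 1473 and 810, but 1377 and 1219 after quantile normalization.

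Leaving out each array in turn kept 234 of 240 values of the 4 genes on their side and in their direction. Genes called ranged over 277 to 1448 for AKI in GR-deficient mice, 4651 to 6188 for AKI in control mice, 2414 to 3906 between genotypes after AKI, 10 to 115 in healthy mice and 1556 to 2696 for the interaction; members called over 0 to 1, 4 to 4, 4 to 4, 0 to 1 and 4 to 4. Dbp in healthy mice ranged over -1.41 to -0.99, Tef with AKI in GR-deficient mice over -0.81 to -0.61 and Dbp, Hlf and Nfil3 there over -0.56 to -0.14, -0.18 to -0.01 and -0.08 to 0.66. Nfil3 in healthy mice ranged over 0.29 to 1.03. For AKI in GR-deficient mice 277 genes were called without GR-deficient AKI replicate 1, 468 without its replicate 2, 472 without GR-deficient healthy replicate 2 and 1448 without control AKI replicate 1.

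With the replicate number as a block, 671, 5368, 3104, 25 and 2013 genes were called in the order above and no call of a member changed (Dbp in healthy mice -1.19, adjusted p = 0.0496). Same-numbered samples deviated together in 1 of 12 pairs (r from -0.41 to 0.25, threshold 0.1), and 3 of 24 correlated best with their own number, so the numbers were not taken to pair samples. Fits of only the groups compared do not exist for the interaction, which needs all 4.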

Other observations

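Other bZIP factors rose with AKI in control mice. Of 6 related bZIP genes, 0 passed with AKI in GR-deficient mice (limma, with 1 at an unadjusted p under 0.05), where 4.64% of all genes passed. In control mice 4 rose, where 13.6% of all genes rose. The medians were 0.16 in GR-deficient and 1.01 in control mice, against -0.026 and 0.001 over all genes. Ddit3, the stress factor CHOP, differed by 0.49 in GR-deficient mice (adjusted p = 0.175) and rose by 2.14 in control mice (adjusted p = 8.28e-07), with an interaction of -1.65 (adjusted p = 0.00117). Cebpb, a factor of acute-phase and immune genes, differed by 0.15 in GR-deficient mice (adjusted p = 0.727) and rose by 1.56 in control mice (adjusted p = 1.26e-05), with an interaction of -1.41 (adjusted p = 0.00271). Cebpd, its relative, differed by 0.49 in GR-deficient mice (adjusted p = 0.328) and rose by 1.84 in control mice (adjusted p = 5e-05), with an interaction of -1.35 (adjusted p = 0.0229). Cebpg rose by 0.46 in control mice (adjusted p = 0.00449) and differed by 0.18 in GR-deficient mice (adjusted p = 0.405, interaction -0.27, adjusted p = 0.305). Leaving out control AKI replicate 1 gave 1 of 6, and leaving out both arrays that stood apart gave 2 of 6, passing in GR-deficient mice.

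Among GR target genes, Fkbp5, a co-chaperone of the receptor (-1.62, limma adjusted p = 0.000539), and Zbtb16 (-1.30, adjusted p = 0.00127) were lower in GR-deficient than in control AKI cortex. Of the 10 measured, 3 did not pass there. These were Tsc22d3 (0.25, adjusted p = 0.337), Klf9 (-0.09, adjusted p = 0.732) and Errfi1 (-0.41, adjusted p = 0.148). All genes of this paragraph were chosen after their values were seen.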
